A study of Mus musculus with 74 samples.

Results

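Fragments of the mitochondrial tRNA for arginine, *mt-TR*, that keep the complete CCA end were described in small RNA from mouse lung. A read was counted as intact where its last base was position 71, the final A of mature *mt-TR* in C57BL/6J mtDNA, whatever its first base. Of the 500 sequences in the table, 20 met this rule, and they held 612 of 5606 *mt-TR* reads. These 20 sequences are called intact fragments.

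The libraries came from wild-type mice and from mitochondrial–nuclear exchange (MNX) mice, made by pronuclear transfer between oocytes, in a 2-letter code whose first letter gives the nuclear genome and second letter the mtDNA (C for C57BL/6J, H for the strain C3H/HeN and F for FVB/NJ). CC, HH and FF were the wild types, and HC, CH and CF the MNX strains. HC and CH each had 7 female and 6 male libraries, and the other genotypes had 6 of each sex, which gave 74 libraries in 3 batches. The mice were healthy untreated adults of 5 to 15 weeks, and no library was pretreated to repair RNA ends. Batch 1 held 3 HC and 3 CH female libraries. The remaining HC females belonged to batch 2 and the remaining CH females to batch 3. RNA was pooled before sequencing, according to the labels, which do not say how many animals entered each library, so p-values describe the spread between these libraries. The libraries held 0 to 1280 *mt-TR* reads (median 35), and HC male replicate 3, the one with 1280, had 6 intact reads. The table covers *mt-TR* alone, so neither the whole depth nor cell type markers could be read from it. Because lung is a mixture of cell types, fewer cells of a type and less RNA per cell cannot be told apart.

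The CCA end is not encoded in the mitochondrial gene. It is added after transcription by a CCA-adding enzyme, and arginine is attached to the ribose of the terminal A when the tRNA is charged. A fragment ending in the full CCA therefore contains the 3′ end of a matured tRNA, while a fragment lacking the last base or bases has a trimmed or unfinished CCA. Such 3′ fragments commonly begin in the T arm, the stem and loop that lie before the 3′ strand of the acceptor stem.

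In GRCm38 the gene lies on the + strand at chrM:9808-9875 and is annotated as a mitochondrial tRNA without intron. The mature C sequence, with the added CCA in capitals, is shown because all positions refer to it (counted from 1 at the 5′ end).
mature mt-TR, C mtDNA: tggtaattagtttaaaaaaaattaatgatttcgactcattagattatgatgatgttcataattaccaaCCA

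The following fragments are shown to make visible where the intact reads begin. They are the 6 with the most reads, the longest, the shortest, and the fragment that covers the target of the northern blot probe R5 exactly. Capitals mark the CCA.
24 nt, from 48: gatgatgttcataattaccaaCCA
26 nt, from 46: atgatgatgttcataattaccaaCCA
23 nt, from 49: atgatgttcataattaccaaCCA
21 nt, from 51: gatgttcataattaccaaCCA
28 nt, from 44: ttatgatgatgttcataattaccaaCCA
20 nt, from 52: atgttcataattaccaaCCA
42 nt, from 30: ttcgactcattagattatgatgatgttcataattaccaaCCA
18 nt, from 54: gttcataattaccaaCCA
19 nt, from 53: tgttcataattaccaaCCA

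All 20 fragments occur in the *mt-TR* of all 3 mtDNA types, and each matches 1 site in it. None matched another transcript of the GENCODE annotation. The part of the molecule that differs between the strains lies before their first bases, so a library's mtDNA type did not alter which intact fragments it could contain.

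The last base was the commonest of the 40 end positions in the table. Position 45 came next, with 363 reads. Reads ending 1 base earlier, at position 70, numbered 310, and those ending at 69 numbered 149. Only 12 reads ended at 68 and 9 at 67, so the 3′ ends near the terminus lay almost wholly within the CCA. Intact ends made up 57.1% of the 1071 reads that ended at 69 to 71.

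Intact fragments were 18 to 42 nt long, with a median read length of 24 nt against 23 nt for all other *mt-TR* reads. Fragments of 20 to 26 nt held 473 intact reads (77.3%). The 8 fragments of 30 nt or more held 22 reads (3.59%), whereas 13.9% of other reads were that long. No intact fragment was under 18 nt, although the table reaches down to 15 nt and 305 other reads (6.11%) were under 18 nt. Within libraries the lengths of intact and other reads were not told apart. The mean length was 24.2 ± 1.91 nt (SD) for intact reads and 23.9 ± 1.46 nt for the others in the 44 libraries with at least 3 reads of each kind (difference 0.378 nt, p = 0.333, two-sided sign-flip permutation test).

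First bases lay between positions 30 and 54. The longest read in the table is 42 nt, so no intact read could begin before position 30. In that stretch, 5 positions (31, 35, 37, 38 and 39) began no intact read. The 5′ strand of the T stem (45 to 49) began 365 reads (59.6%) and the T loop 160 (26.1%). The 4 positions between the anticodon and T stems (41 to 44) began 73 reads (11.9%). Only 4 reads began in the 3′ strand of the anticodon stem and 10 in the anticodon loop. These regions were assigned from the Watson-Crick pairing of the C sequence, in which all 5 pairs of the T stem, all 5 of the anticodon stem and all 7 of the acceptor stem are complementary, and were drawn up after the counts had been seen.

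The 24-nt fragment, chrM:9855-9875 plus CCA, was the most frequent, with 157 reads in 26 libraries. In the libraries that contained it, it had 1 to 45 reads (median 2.5), and 8 of them held a single read. CH female replicate 3 gave 45 and HC female replicate 3 gave 29, so these 2 batch 1 libraries carried much of its total. Outside batch 1 it remained the largest single fragment, with 66 of 296 intact reads (22.3%). It was nevertheless not the main intact fragment of every library. Among the 34 libraries with at least 5 intact reads it had the most reads, ties included, in 13 and was absent from 12.

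The 26-nt fragment (chrM:9853-9875 plus CCA) had 88 reads in 23 libraries, with at most 14 in CH female replicate 3. The 23-nt fragment (chrM:9856-9875 plus CCA) had 87 reads in 22 libraries, with at most 20 in that same library. The 21-nt fragment (chrM:9858-9875 plus CCA) had 72 reads in 20 libraries, with at most 14, again there. With the 24-nt fragment these are the 4 found in 20 libraries or more, and together they held 404 intact reads (66.0%). All 4 were seen in each of the 6 genotypes, as was the 28-nt fragment, which had 41 reads in 14 libraries and a highest count of 7, in FF male replicate 6.

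The 20-nt fragment had 37 reads in 14 libraries and was not seen in HH. The 29-nt fragment, from 43, had 24 reads in 13 libraries, and the 18-nt fragment had 19 reads in 13 libraries. The 27-nt fragment, from 45, was found in 8 libraries with 17 reads, and CH female replicates 2 and 3 together gave 11 of these. The fragments of 25 nt, 22 nt and 19 nt tied at 16 reads. The 19-nt fragment spanning the R5 target was found in 8 libraries, and 19 of the 20 intact fragments contain that target. On northern blots, a different measure, the paper saw no fragment with probe R5 in lung or liver. It adds that 3′ cleavage products can still be sequenced after a miRNA-specific library preparation. Of the 20 intact fragments, 11 are among the liver sequences that it lists. The longest fragment, of 42 nt, was 1 read in FF male replicate 6. The 7 others each had 1 to 5 reads.

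Most of these first bases were also seen with trimmed ends, but none of the reads from positions 30 and 34 ended at 69 or 70. At position 48, where the 24-nt fragment begins, 157 reads ended at 71, 77 at 70 and 56 at 69, and 24 ended before 69. At position 49 the 3 counts were 87, 30 and 4, and at position 46 they were 88, 36 and 7. At position 36, in contrast, 1 read was intact and 8 ended at 70. From position 30, in the anticodon loop, 1 read reached the last base while 95 ended before 69.

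Within libraries, intact reads began further toward the 3′ end than trimmed reads, which ended at 69 or 70. In the 31 libraries with at least 3 reads of each kind the mean first base was 47.7 ± 1.98 (SD) for intact and 46.3 ± 2.35 for trimmed reads. The difference was 1.37 ± 2.73 positions (SD of the paired differences, p = 0.00902, two-sided sign-flip permutation test), and it was positive in 25 libraries and negative in 6. It ranged from -5 to 7.17 positions. When each sequence of a library was counted once the difference was 0.996 positions with p = 0.161 (permutation test), so the call rested on read numbers. In the 25 libraries outside batch 1 it was 1.28 positions (p = 0.0348, permutation test), and in the 19 of batch 2 alone 1.08 positions (p = 0.0589, permutation test). Trimmed reads end 1 or 2 bases earlier by definition. The lengths of the 2 kinds, compared after this result was known, averaged 24.3 nt each (difference -0.00442 nt, p = 0.993, permutation test). Reads of equal mean length that end 1 or 2 bases earlier also begin that much earlier. The definition fixes the last base only, not the first base or the length. Once the ends are given, first base and length follow from each other, so the 2 comparisons are not separate results. How the shift in first base arises was not tested.

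From position 46 to 54 the molecule reads A, U and G in turn 3 times, so that reads beginning with each base can be set side by side (U is printed as t above). Of the 508 intact reads that began there, 248 (48.8%) began with G, 212 (41.7%) with A and 48 (9.45%; 95% Wilson interval 7.20 to 12.3%) with U. The U starts gave the fragments of 25, 22 and 19 nt, 16 reads each. Reads ending at 70 began with U in 9 of 202 cases (4.46%; 2.36 to 8.25%), and reads ending at 69 in 5 of 101 (4.95%; 2.13 to 11.1%). Among the 28 libraries with at least 5 intact reads from this stretch, 17 had none that began with U. The share was highest in CF male replicate 3, where U began all 5. The pattern was tabulated after the counts had been seen and was not tested, and the intervals cover counting error only, since reads of 1 library are not independent molecules.

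Intact reads were spread unevenly over libraries. Of the 71 libraries with any *mt-TR* read, 53 had an intact read, and the median over all 74 was 3.5 intact reads. CH female replicate 3 had 116, HC female replicate 3 had 71, CH female replicate 2 had 47 and CH female replicate 1 had 41. These 4 batch 1 libraries held 275 intact reads (44.9%). Batch 1 as a whole held 51.6% of the intact reads but 17.4% of all *mt-TR* reads.

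Of the 61 libraries with at least 10 reads, 11 had no intact read. The deepest were HH male replicate 5 with 176 *mt-TR* reads, HH female replicate 6 with 171 and HH male replicate 6 with 94, all of batch 3. A count of 0 there allows a share of up to 1.70%, 1.75% and 3.19% (3 reads of the total). HH female replicate 6 and HH male replicate 6 had 10 and 11 reads ending at position 70, whereas HH male replicate 5 had no read ending at 70 and 1 at 69. No HH male library had an intact read, among 294 reads in 5 libraries.

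The number of different intact fragments per library varied with the batch. In the 6 libraries of batch 1, which had 17 to 116 intact reads, 8 to 13 fragments were found, and the commonest took 16.7 to 40.8% of the intact reads. The 21 libraries of batch 2 with at least 5 intact reads (up to 16) held 1 to 7 fragments, and the commonest took 18.2 to 100% (median 45.5%). The 7 of batch 3 (up to 13 reads) held 1 to 3, and the commonest took 75.0 to 100% there. In 5 of the libraries with at least 5 intact reads, all intact reads were 1 sequence. CF male replicate 5 had 12 reads of the 24-nt fragment, CH female replicate 6 had 9 of the 26-nt fragment, HC male replicate 5 had 5 of the 26-nt, HH female replicate 4 had 5 of the 23-nt and CF male replicate 3 had 5 of the 25-nt fragment. Whether such reads stem from 1 or several molecules was not tested.

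The 24-nt and 23-nt fragments led in both of the first 2 batches. In batch 1 the fragments of 24, 23, 26 and 21 nt had 91, 50, 38 and 35 reads, and in batch 2 they had 45, 35, 26 and 33. In batch 3 they had 21, 2, 24 and 4 reads, in at most 3 libraries each, and the 28-nt fragment had 13. The pooled mean length of intact reads was 24.1 nt in batch 1, 23.8 nt in batch 2 and 25.7 nt in batch 3. Over libraries with at least 5 intact reads it was 23.9 ± 0.945 nt (SD, n = 6), 23.9 ± 1.41 nt (n = 21) and 26.1 ± 1.97 nt (n = 7), a difference that was not tested.

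Within batch 1 the intact reads of CH and HC females were compared after the values had been seen. Intact reads made up 31.5, 41 and 60.7% of *mt-TR* reads in the 3 CH libraries and 12.2, 15.0 and 29.8% in the 3 HC libraries, and the groups did not overlap. The mean lengths of intact reads were 24.3, 24.8 and 25.1 nt in CH and 22.8, 23.1 and 23.5 nt in HC, again without overlap. For both measures the exact two-sided permutation test gave p = 0.1, the smallest that 3 against 3 libraries allow. Intact ends took 69.6 ± 7.67% (SD, n = 3) of reads ending at 69 to 71 in CH and 59.3 ± 14.1% in HC, with overlap (p = 0.3, exact permutation test). CH and HC differ in both genomes, so nuclear and mitochondrial origin cannot be told apart here.

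Against the later batches, the share of intact reads was 31.7 ± 17.8% (SD, n = 6) in batch 1 HC and CH females and 12.4 ± 18.5% (n = 7) in the others. The difference within genotype was 18.1 percentage points (p = 0.0986, exact two-sided permutation test). The call turned on CH female replicate 6, whose 9 intact reads of 17 *mt-TR* reads were 1 sequence. Without that library the difference was 24.5 points (p = 0.00571, exact permutation test). With each sequence of a library counted once it was 5.98 points (p = 0.296, exact permutation test). In HC females alone the shares were 19.0 ± 9.46% (n = 3) and 8.52 ± 3.34% (n = 4), with p = 0.0571 by the exact permutation test. Counting each sequence once gave HC females a difference of -0.369 percentage points. In CH females they were 44.4 ± 14.9% (n = 3) and 17.6 ± 30.6% (n = 3), with p = 0.3 by the exact permutation test.

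Genotypes and sexes were compared in libraries with at least 10 *mt-TR* reads. Genotype labels were permuted within sex and batch, and sex labels within genotype and batch. Batch 2 joins several library name prefixes, which the permutations did not separate. Within it CH and HC males share no prefix with CC and HH males. CF females share none with FF females, nor CC females with CC males. There, genotype or sex and prefix cannot be told apart. Over these libraries the share of intact reads was lowest in HH, at 0 to 22.7% (median 1.65%, n = 8), and FF followed with 0 to 38.5% (median 4.86%, n = 8). HC libraries had 0.469 to 29.8% (median 8.33%, n = 11), CF 0 to 30.3% (median 10.9%, n = 12) and CC 0 to 33.3% (median 11.7%, n = 10). CH libraries had 0 to 60.7% (median 25.3%, n = 12). All 6 ranges overlapped.

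CH exceeded HH within sex and batch by 15.4 percentage points (p = 0.225, adjusted p = 0.788, exact permutation test over the 13 libraries in strata that hold both). The HH libraries among them were male replicates 3, 5 and 6 and female replicate 6, none with an intact read. HH females of batch 2 and CH females of batch 1 shared no stratum and did not enter. With at least 20 reads per library the difference between CH and HH was 6.19 points and that between CH and CC 15.0 points, so their order depended on the read minimum. HC minus CC was -6.71 points (p = 0.164, adjusted p = 0.788, exact permutation test). CH exceeded CC by 6.04 points (adjusted p = 0.896, exact permutation test), and by 2.17 points without CH male replicate 3, 2.97 without CH male replicate 4 and 11.4 without CC male replicate 3. The other 4 comparisons passed no test either, with differences of -0.920 points for CF minus CC, -0.421 for HC minus HH, 0.906 for CF minus FF and -3.14 for males minus females (adjusted p = 0.896 for each, permutation tests, Benjamini-Hochberg over the 7 comparisons). The signs of CF minus CC, HC minus HH, CF minus FF and the sexes turned with the read minimum. The mean share was 10.9 ± 11.2% in 28 male and 16.1 ± 15.3% in 33 female libraries.

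When reads were instead summed by end position and fitted with edgeR, position 71 was called in CH against HH (adjusted p = 0.00444 over the 40 end positions, edgeR quasi-likelihood test), where 5% of end positions were called. Without CH female replicate 6 its adjusted p was 0.0546, and in batch 2 alone 0.494. The fitted log2 fold change, 3.85, is no bound, since it depends on the prior count where all HH males were at 0. Position 71 was called in no other contrast, of which CF against FF had 2.5% of end positions called and the rest 0%.

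Single intact fragments were tested with edgeR over all 500 sequences. None of the 20 was called in any of the 7 comparisons. Over all sequences 0% were called in 6 comparisons and 0.6% in CF against FF, where the 3 sequences called ended at positions 70 and 46. At an unadjusted p under 0.05 this edgeR fit found 0 to 3 of the 20 intact fragments per comparison, beside 3 to 31 of all 500 sequences. The 3 were in CF against CC, where 25 of the 500 passed. The alternative edgeR fits found 0 to 9 intact fragments. The 9, beside 50 of all 500 sequences, were in CH against HH without the batch covariate. With TMM normalization CF against FF had 5, beside 43 of all 500. DESeq2, which called none, found 0 or 1 intact fragment and 0 to 4 of all sequences. The lowest adjusted p of an intact fragment was 0.209 in this fit (edgeR, CF against CC) and 0.0823 over the alternative fits (edgeR with the replicate block, CH against HH). On simulated counts of the same depth and dispersion, edgeR recovered 2 of 200 sequences changed 4-fold between CH and CC, with 1 false call. The changed sequences were drawn at random from all 500, so changes of that size were mostly missed over the table as a whole. Recovery was not computed apart for the intact fragments, so it is not known for the most frequent of them.

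The length of intact reads was compared among the 6 genotypes in the 34 libraries with at least 5 of them. Library means ran from 20.7 to 29.8 nt (median 24.1 nt). The genotype means were 23.6 ± 1.36 nt (SD, n = 4) in CC, 23.9 ± 1.15 (n = 9) in HC, 24.1 ± 0.952 (n = 3) in HH, 24.3 ± 1.95 (n = 9) in CF, 24.7 ± 1.23 (n = 7) in CH and 27.5 ± 3.22 (n = 2) in FF. Their spread of 3.88 nt did not pass the test (p = 0.175, permutation within sex and batch). FF stands on 2 libraries, one of which, FF male replicate 6, averaged 29.8 nt from 7 reads of the 28-nt fragment and the 42-nt read. Without that library the spread was 1.60 nt. With each sequence counted once, FF male replicate 6 averaged 35 nt and FF female replicate 4, the other FF library, 28 nt. The spread was then 7.71 nt (p = 0.00063, permutation test), and it was not computed without FF male replicate 6. The test result also depended on the read minimum, as the 17 libraries with at least 10 intact reads gave a spread of 1.88 nt with p = 0.00197 (permutation test), without FF.

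The share of intact ends among reads ending at 69 to 71 was likewise compared in 47 libraries with at least 5 such reads. The mean was highest in CC and lowest in HH, with a spread of 35.1 percentage points (p = 0.273, permutation within sex and batch). With at least 10 such reads per library it was 48.2 points with p = 0.0290 (permutation test).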

How the data were processed

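Small RNA of mouse lung was sequenced from a single-adapter circularized library, 74 libraries in all. The series title and labels give lung, while its design text gives liver. The table deposited by the authors holds raw counts, with 1 row for every distinct read sequence and 1 column for every library. According to the submitters' processing notes the tools were FastQC 0.12.1, UMI-tools 1.1.6, cutadapt 5.0, BWA 0.7.18 and Bowtie 1.3.1, with mm10. The methods describe Bowtie mapping without gaps or mismatches to the *mt-TR* of the mtDNA type of each sample, removal of duplicates by molecular identifier and removal of sequences that map elsewhere in mm10. They do not say that each step was applied to these libraries. PCR copies may remain, and intervals and floors (3 reads) cover counting error only.

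Sequences were located by exact match on mature *mt-TR* (GENCODE M21, GRCm38, plus CCA), aligned from the 3′ end. Other matches in mm10 were not checked. Genotype, sex and replicate came from the labels. The batches follow the prefixes of the library names. Batch 2 joins several prefixes, some of them all male or all female, and several genotype comparisons within it also fall wholly between prefixes. Prefix was neither a stratum nor a covariate. No libraries with reads were identical. Permutation tests ran over libraries, exactly or with 100000 resamples. Sequence counts were fitted with edgeR 4.0.16 in R 4.3.3 without a filter, with library size the sum of *mt-TR* reads, genotype and sex as groups and batch as a covariate, Benjamini-Hochberg adjusted p under 0.05. DESeq2 1.42.0 was an alternative. Other calculations used Python 3.11.15, numpy 2.4.6, pandas 2.3.3 and scipy 1.17.1.

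The fragments and comparisons were chosen with earlier results of these data known. Comparisons of males with females in the length of intact reads and in the intact share of reads ending at 69 to 71, and of the 24-nt fragment between batches, were also run, passed no test and were left out as unplanned. The named fragments were the 10 with the most reads, the longest, the shortest and the one at 53 to 71. The permutation tests and the edgeR fit, but not DESeq2, were tested on simulated data. For the test among 6 genotypes these were 6 groups of 4 values, with 1 group 3 SD higher. The real groups were unequal, with 2 to 9 libraries for length, so the simulated rates are not the power in these data. In the simulation the test recovered 98.0% of such effects where strata were level but 26.0% where they differed in level. It recovered 96.0% of the latter when values were centred within strata. The centred form was therefore added after the real values had been seen, beside the uncentred form fixed earlier, which stays the one reported. Replicate numbers do not pair libraries, as labels give them no shared animal or day and the correlation of same-numbered deviations in the share ran from -0.655 to 0.473 over the 6 contrasts.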

Additional observations from a re-analysis of the deposited data

Results flagged for a closer look

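Among 28 combinations of group and measure, of which 1.4 would be expected to stand out by chance, 4 values from 3 libraries stood apart from their group. CF female replicate 1 had an intact share of 0%, against 9.52% in the next CF female. HC female replicate 3 had a share of 29.8%, against 15.0% in the next. The number of intact reads was 116 in CH female replicate 3, against 47 in the next CH female, and 71 in HC female replicate 3, against 24. The last 3 values belong to batch 1, whose HC and CH females had more intact reads than any other library.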

How the results depend on the processing

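Depth limits all results: a library had a median of 3.5 intact reads, and filterByExpr kept 0 of 500 sequences, so that alternative gave no value. The genotype and sex differences in the intact share passed no test in the permutation alternatives, but small differences changed sign. CF minus CC became 2.50 percentage points with at least 20 reads, and males minus females 1.43. HC minus HH became 4.25 points with at least 1 read, 2.37 with distinct sequences and 1.62 with the replicate block. CF minus FF became -0.400 with at least 1 read, -4.07 in batch 2 alone and -4.90 with distinct sequences. The replicate block changed no other call on the shares, and with it 2 of the 3 sequences called in CF minus FF were called. HC minus CC was -1.01 with at least 20 reads and -3.16 with at least 1. Leaving out each library in turn gave 2.17 to 11.4 points for CH minus CC, 10.5 to 19.2 for CH minus HH, -7.90 to -3.95 for HC minus CC, -4.40 to -1.48 for males minus females, -2.33 to 1.58 points for CF minus CC, -2.001 to 1.72 for HC minus HH, -1.63 to 5.12 for CF minus FF, and 13.6 to 24.5 for batch 1 minus later batches in HC and CH females. Summing reads by end position (edgeR, log2 fold change at position 71) gave 0.34 for CF minus CC, 2.66 for HC minus HH and -0.16 for CF minus FF, the reverse of the shares and with adjusted p above the threshold. It gave 3.85 for CH minus HH (adjusted p = 0.00444), and, in settings added after the data were seen, 3.77 without batch 1 (adjusted p = 0.0145), 3.79 without CH female replicate 3 (adjusted p = 0.00580), 3.11 without CH female replicate 6 (adjusted p = 0.0546) and 6.82 in batch 2 alone (adjusted p = 0.494). These fitted values depend on the prior count, as HH males were at 0.

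The spread of mean length among genotypes passed the permutation test with at least 10 reads (1.88 nt, p = 0.00197) and with distinct sequences (7.71 nt, p = 0.00063). Centred within sex and batch, the permutation test gave 3.14 nt (p = 0.0845). This permutation test gave 1.88 nt with at least 10 reads (p = 0.00848) and 7.12 nt with distinct sequences (p = 1e-04), where FF had 2 libraries. Leaving out each library gave 1.60 (without FF male replicate 6) to 6.15 nt. The intact share of reads ending at 69 to 71 passed only with at least 10 reads (48.2 points, p = 0.0290, centred 42.1 points, p = 0.0422, permutation tests). Centred with the original minimum it was 34.7 points (p = 0.263, permutation test). The first base of intact against trimmed reads no longer passed with distinct sequences (0.996 positions, p = 0.161, permutation test). The batch 1 difference became -0.369 points in HC females with distinct sequences, and that in mean length, -0.393 nt, became 0.695 nt with distinct sequences and ranged from -0.798 to 0.154 nt on leaving out libraries. Of the 3 sequences called lower in CF than FF, TMM called 0 but 1 other, higher in CF, and DESeq2 called 0. The causes were not tested.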
